A study of Mus musculus with 8 samples.

Results

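Bone marrow-derived dendritic cells (BMDCs) that lacked the GRK genes Grk2, Grk3 and Grk6 were stimulated with LPS, and the change of every gene from the unstimulated to the stimulated state of these cells is described here. The members were chosen by label: the 2 LPS-stimulated and the 2 unstimulated knockout libraries, joined gene by gene on their Ensembl ID, make up 4 of the 8 libraries of the study. The other 4 are the WT libraries, 2 with and 2 without LPS, which serve as the comparison. The knockout cells, called 3xGrk-/-, came from mice with floxed Grk2 and Grk6 (Grk2 fl/fl, Grk6 fl/fl) and the Vav-iCre transgene on a Grk3-/- background, in which Cre is driven in blood-forming cells and Grk3 is missing from the whole animal. WT cells came from Cre-negative controls. All mice were on the C57BL/6J background and older than 8 weeks. All 4 groups share the culture of bone marrow for 8 days with 20 ng/ml GM-CSF, and the stimulated groups received 20 ng/ml LPS for 24 h. The methods speak of technical triplicates and do not say that a library stands for a separate culture, so that p-values measure only the spread between these libraries, which may be technical.

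GRKs are kinases that phosphorylate activated G-protein coupled receptors, after which beta-arrestins bind and signalling through the G protein stops. LPS, a component of the wall of Gram-negative bacteria, is sensed by TLR4 with its partners CD14 and MD-2. TLR4 signals through MyD88 to NF-kB and inflammatory cytokines and through TRIF to type I interferon, which then induces interferon-stimulated genes. In dendritic cells (DCs) this programme is known to bring costimulatory molecules and CCR7 to the surface, to stop the synthesis of new MHC class II molecules and to change metabolism.

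The gene counts of the 3xGrk-/- libraries summed to 6392583 and 5519312 without LPS and to 6064217 and 6933358 with it, and those of the WT libraries to between 4713305 and 6804666. Values are CPM, counts scaled with TMM to the same library size, given for replicate 1 and then replicate 2, and fold changes are log2 of LPS over unstimulated. A gene was called at an adjusted p under 0.05. Every adjusted p comes from the quasi-likelihood test of edgeR, adjusted after Benjamini and Hochberg over all genes tested. With 2 libraries against 2, an exact permutation test cannot give a p below 0.333. The stimulated and the unstimulated libraries stand in separate deposited tables, so that LPS and any run or counting that goes with a table cannot be told apart. Between the LPS-stimulated 3xGrk-/- libraries the mean chi-square per gene was 9.02, against 1.59 to 3.07 in the other groups, while the median was 0.593 and lay under the 0.874 of the LPS-stimulated WT libraries. Their median absolute log2 gap was 0.0868, against 0.123 in LPS-stimulated WT libraries, and 15 genes lay at least 1 log2 unit apart, against 16. In the LPS-stimulated 3xGrk-/- libraries, 8 genes that overlap or resemble ribosomal RNA (Gm42418, Lars2, Mir6236, Gm24187, Gm23935, Gm15564, Gm24270 and Gm26917, chosen after their values were seen) held 0.558% of the reads of replicate 1 and 2.69% of those of replicate 2. In the other libraries they held 0.345% to 0.793%. Gm42418 was called higher with LPS in 3xGrk-/- cells (log2 1.95, adjusted p = 3.04e-05), and without replicate 2 this value was 0.37 (adjusted p = 0.091).

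**Figure D1:**
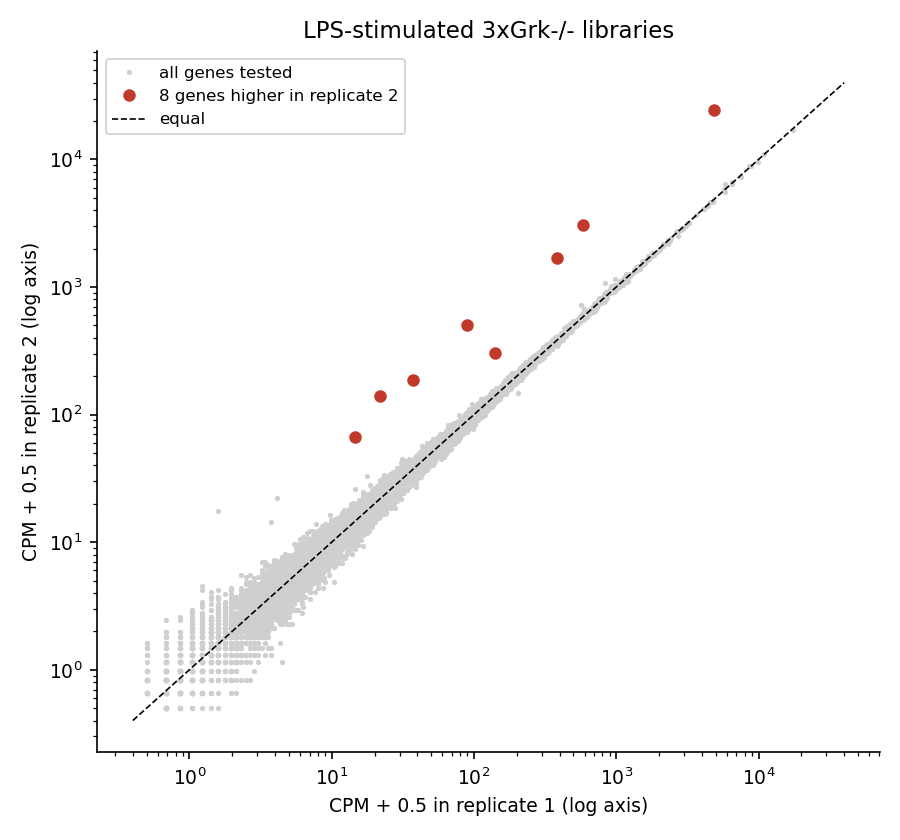
Each point is a gene, with its CPM + 0.5 in replicate 1 (x axis, log scale) and in replicate 2 (y axis, log scale) of the LPS-stimulated 3xGrk-/- BMDCs. Of 9313 genes compared, 15 lay at least 1 log2 unit apart, and the 8 rRNA-like genes in red lay above the line of equal values in replicate 2.

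The targeted genes were still counted in 3xGrk-/- cells. Grk2 (chromosome 19, 4286001 to 4306222 of GRCm38) had 151 and 146 CPM without LPS and 199 and 184 CPM with LPS, a rise of 0.36 on the log2 scale (SE 0.0608, adjusted p = 1.13e-05). In WT it had 320 and 321 CPM without and 677 and 736 CPM with LPS, and the genotypes did not overlap in either state. The rise was smaller in 3xGrk-/- than in WT cells by 0.78 on the log2 scale (adjusted p = 1.08e-08 for the difference of the responses). Grk3 had 267 and 263 CPM without and 343 and 335 CPM with LPS in 3xGrk-/- cells (log2 0.35, adjusted p = 1.33e-06), and 338 and 341 CPM without and 460 and 444 CPM with LPS in WT cells. Grk6 had 36.9 and 37 CPM without and 34 and 32.6 CPM with LPS in 3xGrk-/- cells (log2 −0.15, adjusted p = 0.211). Its WT values were 85.4 and 83.4 CPM without and 91.8 and 101 CPM with LPS. Each gene has a single count over its exons, which cannot show whether reads fell in the deleted parts. Of the kinases that were not targeted, Grk5 was not called (log2 −0.23, adjusted p = 0.133) and Grk4 was near the detection limit. The arrestin Arrb1 fell from 379 and 399 to 299 and 274 CPM (log2 −0.44, adjusted p = 7.59e-08). Arrb2 rose by 0.15 (adjusted p = 0.0153), a change that turned to −0.06 when libraries were scaled by their size alone.

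Genes of the DC lineage were present. Itgax, the gene of CD11c, had 1096 and 1069 CPM in unstimulated and 336 and 344 CPM in LPS-stimulated 3xGrk-/- cells, Flt3 had 34 and 33 against 48.7 and 51.7 CPM, and Zbtb46, a transcription factor of classical DCs, had 109 and 118 against 123 and 114 CPM. Cd209a was close to 0 in all 4 knockout libraries, with at most 0.521 CPM, and Xcr1, a marker of cross-presenting DCs, did not pass the filter on low counts. Genes of monocytes and macrophages were counted as well, among them Lyz2, the gene of lysozyme, with 7068 and 7093 CPM before LPS. In a bulk sample, fewer cells of a type and less RNA per cell cannot be told apart.

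Of 12541 genes tested, 3510 (28.0%) were called higher and 3435 (27.4%) lower with LPS in 3xGrk-/- cells. A log2 change of at least 1 was reached by 1216 of the higher and 1157 of the lower genes, of at least 2 by 533 and 336, and of at least 4 by 164 and 40. The stimulated and unstimulated knockout libraries did not overlap for 9728 genes (77.6%). The median log2 change of all genes was −0.01. With library size as the only scaling it was −0.23 and the split became 2245 higher and 5200 lower genes, so that small changes are relative to the scaling. The shares of 28.0% higher and 27.4% lower are the background for the counts of each gene list.

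The genes with the highest and lowest log2 changes were chosen among those whose stimulated and unstimulated libraries did not overlap, so that their lack of overlap is no result. Among those with high changes were products of activated macrophages and DCs and interferon-induced genes. Nos2 (chromosome 11, 78920787 to 78960254), the inducible nitric oxide synthase, had 0.898 and 0.347 CPM without and 541 and 521 CPM with LPS. The log2 change was 9.64 (adjusted p = 2.53e-28), and its size is imprecise because it rests on 6 and 2 counts without LPS. Ptgs2, the gene of cyclooxygenase-2, went from 1.94 and 2.08 to 452 and 448 CPM (log2 7.79, adjusted p = 1.7e-24). Dll4, a Notch ligand, went from 0.748 and 0.868 to 115 and 110 CPM (log2 7.09, adjusted p = 8.6e-23). Hamp, which encodes the iron hormone hepcidin, had 1 count over both unstimulated and 485 counts over both stimulated libraries, a ratio of 517 with a 95% interval of 92.4 to 20471 that covers counting error only. The same kind of ratio was 407 (72.7 to 16132) for Vnn3, a member of the vanin family, and 410 (73.1 to 16216) for Apol9b. The transcript U90926 had 0.898 and 0 CPM without and 115 CPM in each library with LPS (log2 7.84, adjusted p = 3.04e-21). Its 6 counts without LPS were all in replicate 1, so the size of this change is imprecise.

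Enpp2 and Dcn were at 0 in both unstimulated 3xGrk-/- libraries. Enpp2, the gene of autotaxin, the enzyme that makes lysophosphatidic acid, reached 39.6 and 40.9 CPM, at least 167-fold over the floor of 3 counts over the group. Its WT values were 0.955 and 0.841 CPM without and 486 and 492 CPM with LPS. Dcn, which encodes the matrix proteoglycan decorin, reached 127 and 113 CPM, at least 497-fold over the same floor. In WT cells it had 2.36 and 1.08 CPM with LPS.

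Among genes that fell, Fn1 (chromosome 1, 71585520 to 71653200), the gene of fibronectin, dropped from 1765 and 1757 to 53.6 and 58.7 CPM, a log2 change of −4.97 (SE 0.0633, adjusted p = 8.53e-30). Ccr2, the receptor with which monocytes leave the bone marrow, dropped from 121 and 132 to 9.09 and 6.49 CPM (log2 −4.03, adjusted p = 2.53e-21). The lectins Mgl2 and Asgr2 fell together: Mgl2 had 168 and 166 CPM without and 12.5 and 13.9 CPM with LPS (log2 −3.65), and Asgr2 had 42.5 and 45.3 against 2 and 2.27 CPM (log2 −4.34). Grap2, an adaptor of antigen receptor signalling, had 4.49 and 5.73 CPM without LPS and no count with LPS, at least 19.7-fold lower. Ltb, the gene of lymphotoxin beta, fell by 4.18, Hr by 3.83 and Ffar4, a receptor for long-chain fatty acids, by 3.63 on the log2 scale. B3gnt7, F2rl2, Tacc2, Rab3il1, Pald1, Cass4 and Ppbp fell by 3.72 to 4.50. For Rab3il1 the stimulated libraries stood apart, with 1.09 and 3.08 CPM, and the log2 change was −3.34 without the first and −4.82 without the second.

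**Figure D2:**
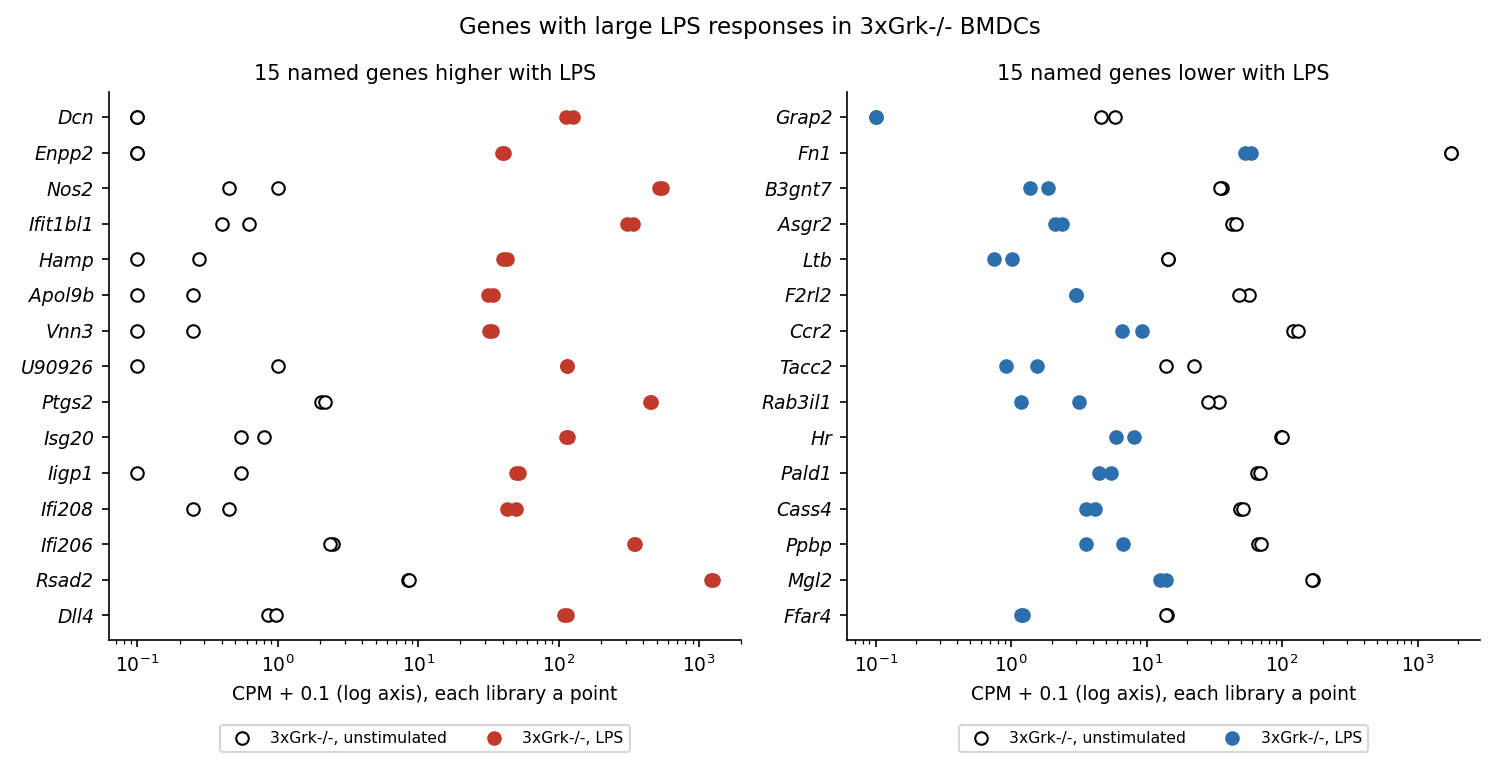
CPM + 0.1 (x axis, log scale) of 15 genes that were higher and 15 that were lower with LPS in 3xGrk-/- BMDCs, with 1 point per library. Open points are unstimulated and filled points LPS-stimulated libraries, which do not overlap because the genes were chosen so. Fn1 spans from 1765 to 53.6 CPM and Nos2 from 0.347 to 541 CPM.

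All 30 interferon-stimulated genes on the list rose in 3xGrk-/- cells, against 28.0% of all genes tested, with log2 changes from 1.01 for Mx1 to 7.19 for Rsad2 and a median of 3.26. Rsad2 (chromosome 12, 26442746 to 26456452), the gene of the antiviral enzyme viperin, had 8.38 and 8.51 CPM without and 1250.0 and 1222 CPM with LPS (adjusted p = 7.04e-31). Irf7, the factor that amplifies type I interferon, went from 15 and 17 to 1669.5 and 1615 CPM (log2 6.69). Isg15, a ubiquitin-like modifier, went from 7.63 and 7.64 to 529 and 510 CPM (log2 6.08). The genes of the interferon signal itself rose less, with log2 1.49 for Stat2 and 1.09 for Irf9. Genes outside the list that the interferon system is known to induce stood among the named genes too: Isg20, an RNA exonuclease, had 0.449 and 0.695 CPM without and 117 and 112 CPM with LPS (log2 7.61). Ifit1bl1 had 0.299 and 0.521 against 305 and 338 CPM (log2 9.57), and Ifi206 had 2.39 and 2.26 against 352 and 345 CPM (log2 7.21). Reads of families with similar copies, such as the Ifi200, Ifit, Apol9, Bcl2a1, Klk1b and Ear genes, may be split between members, so their values are uncertain.

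The promoters of Isg15, Ifit3 and Rsad2 are shown because these genes rose by over 6 log2 units in 3xGrk-/- cells and hold the core of the interferon-stimulated response element, a sequence through which interferon signalling is known to act. They come from RefSeq on GRCm38.p6, run 5′ to 3′ from 250 bases before to 50 bases after the gene start on the strand of the gene, and capitals mark matches to GAAANNGAA on either strand. The windows are chr4:156200769-156201068 on the minus strand for Isg15, chr19:34583279-34583578 on the plus strand for Ifit3 and chr12:26456403-26456702 on the minus strand for Rsad2.
Isg15: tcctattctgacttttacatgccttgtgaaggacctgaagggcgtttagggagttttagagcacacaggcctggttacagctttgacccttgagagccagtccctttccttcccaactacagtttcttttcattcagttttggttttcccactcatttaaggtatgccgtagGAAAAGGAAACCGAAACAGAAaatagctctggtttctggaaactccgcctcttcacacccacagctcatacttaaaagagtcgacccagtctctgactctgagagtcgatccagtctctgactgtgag
Ifit3: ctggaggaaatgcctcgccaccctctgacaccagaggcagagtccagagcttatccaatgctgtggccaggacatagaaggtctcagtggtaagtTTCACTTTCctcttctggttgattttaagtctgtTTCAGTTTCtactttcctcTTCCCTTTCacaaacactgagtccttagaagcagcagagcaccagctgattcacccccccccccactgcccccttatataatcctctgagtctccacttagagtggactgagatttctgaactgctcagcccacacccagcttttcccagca
Rsad2: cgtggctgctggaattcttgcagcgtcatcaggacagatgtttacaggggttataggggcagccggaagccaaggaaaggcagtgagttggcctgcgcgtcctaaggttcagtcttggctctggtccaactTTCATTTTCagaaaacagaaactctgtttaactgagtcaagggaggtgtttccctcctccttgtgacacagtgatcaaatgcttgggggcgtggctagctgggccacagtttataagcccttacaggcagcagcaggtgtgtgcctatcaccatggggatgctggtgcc
In Isg15 there were 3 matches that overlap one another, starting at −78, −72 and −66 from the gene start. Ifit3 had 3 separate matches at −155, −121 and −102, all on the opposite strand, and Rsad2 had 1 at −119. The motif was in 17 of the 27 windows found for genes of the list (63%), against 8.56% of all 32851 windows. It was in 19.3% of the 455 windows of genes that were higher by at least 2 log2 units in 3xGrk-/- cells, in 6.64% of the 301 windows of those lower by at least 2, and in 6.71% of windows of genes that were not called. A match is a description of the letters and not a binding site.

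Of 19 inflammatory cytokine genes tested, 17 rose and 2 fell, against 28.0% and 27.4% of all genes, with a median log2 change of 2.04. Il6 had 5.39 and 4.17 CPM without and 324 and 344 CPM with LPS (log2 6.11, adjusted p = 6.6e-27). Il1b went from 81.1 and 77.4 to 1417 and 1454 CPM (log2 4.18), and Il1a from 85.6 and 92.9 to 958 and 1039.8 CPM (log2 3.49). The stimulated libraries were far above the unstimulated ones in all 3 genes. Il1rn, which encodes the antagonist of the IL-1 receptor, rose by 1.89 from 486 and 489 to 1778 and 1837 CPM. The subunits of IL-12 differed in size: Il12b rose by 1.37, from 22.6 and 23.3 to 58.9 and 59.2 CPM, and Il12a went from 1 count to 176 counts over both libraries (ratio 188, 33.3 to 7455). Il10, a cytokine that dampens inflammation, was at 0 without LPS and reached 3.82 and 4.05 CPM, at least 16.4-fold. Csf3, the granulocyte growth factor, had a ratio of 211 (37.5 to 8382). Tnf was 42.5 and 48.3 CPM without and 52.9 and 57.7 CPM with LPS at this time point, a log2 change of 0.29 (adjusted p = 0.0119) that was no longer called with DESeq2, with library size alone, or without LPS replicate 2 or unstimulated replicate 1. Csf1 and Tgfb1 were the 2 that fell, by 0.64 and 0.48.

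Among 19 chemokine genes tested, 15 rose, 3 fell and 1 was not called, against 28.0% higher and 27.4% lower of all genes, and the median log2 change was 2.54. Ccl5 had 589 and 573 CPM without and 5765 and 5819 CPM with LPS (log2 3.32, adjusted p = 6.24e-29). The monocyte attractants Ccl2 and Ccl7 rose by 2.44 and 3.41, Ccl2 from 212 and 214 to 1141 and 1171 CPM and Ccl7 from 36.9 and 38.7 to 401 CPM in each library. Cxcl10, a ligand of CXCR3 induced by interferon, went from 2.54 and 1.39 to 177 and 166 CPM (log2 6.40), and Cxcl11 from 1 count to 297 counts (ratio 317, 56.4 to 12552). The neutrophil attractants Cxcl1, Cxcl2, Cxcl3 and Cxcl5 rose by 4.80, 2.54, 1.05 and 4.45. Ccl6, Ccl9 and Ccl17 fell by 1.35, 0.57 and 0.44. Ccl22 was high before LPS, with 10789 and 10699.5 CPM, and had 11004 and 11030.4 CPM after it (log2 0.04, adjusted p = 0.303, and −0.18 on the log2 scale with library size alone).

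Of 10 chemokine receptor genes, 6 rose, against 28.0% of all genes, and 3 fell, close to the 27.4% of all genes. Ccr7, which guides mature DCs to lymph nodes, rose from 1452 and 1448 to 3081 and 2987 CPM (log2 1.07, adjusted p = 5.83e-19). Ccr1 rose from 194 and 196 to 343 and 363 CPM (log2 0.86) and Cxcr4 from 66.4 and 60.8 to 143 and 138 CPM (log2 1.14). Ccr2, Cxcr2 and Cx3cr1 fell. Ccr3, a receptor of eosinophils, stayed below 1 CPM in the 4 knockout libraries.

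NF-kB subunits and their feedback inhibitors rose in 21 of 22 cases, against 28.0% of all genes, with a median log2 change of 0.86. With library size alone 18 were higher and 1 lower. Tnfaip3, which encodes the ubiquitin editor A20, went from 153 and 147 to 478 CPM in each library (log2 1.67, adjusted p = 2.88e-20). Socs3 rose by 2.80, Dusp1 by 2.30 and Nfkbiz by 1.89, while the inhibitor Nfkbia rose by 0.75 and the subunits Nfkb1, Nfkb2 and Rel by 0.60, 0.52 and 0.45. The core of the kappaB site (GGNNTTTCC, either strand) was in 9 of 23 windows of this list (39.1%), in 6 of 11 windows of the chemokines (54.5%) and in 5.82% of all windows. It is shown in the promoter of Il6, where it starts at −43 (chr5:30012864-30013163, plus strand), because Il6 stood at about 5 CPM without LPS and above 300 CPM with it in each 3xGrk-/- library.
Il6: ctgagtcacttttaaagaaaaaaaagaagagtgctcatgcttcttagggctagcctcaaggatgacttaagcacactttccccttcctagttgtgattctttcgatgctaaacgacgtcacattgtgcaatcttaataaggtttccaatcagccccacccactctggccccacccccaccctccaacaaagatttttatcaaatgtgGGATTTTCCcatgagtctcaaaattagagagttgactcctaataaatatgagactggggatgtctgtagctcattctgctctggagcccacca
Capitals mark the match. Among windows of genes higher by at least 2 log2 units the share was 9.67%, and among those lower by at least 2 it was 7.31%.

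The genes of the LPS receptor rose with LPS. Cd14, which hands LPS to TLR4, had 74.9 and 70 CPM without and 322 and 340 CPM with LPS (log2 2.19, adjusted p = 2.41e-21). Ly96, the gene of MD-2, rose by 1.22 and Tlr4 itself by 0.52, from 100 and 102 to 138 and 152 CPM. Of 21 genes of the TLRs and the TLR4 pathway, 13 rose, 3 fell and 5 were not called, where 28.0% of all genes rose and 27.4% fell. Tlr3, a sensor of double-stranded RNA, rose by 3.05, from 1.94 and 2.43 to 18 and 18.3 CPM. The adaptors Myd88, Tirap and Ticam2 were not called, Ticam1, the gene of TRIF, rose by 0.77, and the kinases Irak1 and Irak4 fell by 0.49 and 0.62.

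DC maturation and migration genes rose in 18 of 26 cases, against 28.0% of all genes, and fell in 5, against 27.4%, with a median of 0.63. Cd86, a costimulatory ligand of CD28, rose from 306 and 297 to 947 and 986 CPM (log2 1.68, SE 0.0477, adjusted p = 6.11e-22). Cd80 rose by 1.90, Cd40 by 1.85 and Cd274, which encodes PD-L1, by 1.59. Cd200, a ligand that restrains myeloid cells, rose by 3.01 from 49.7 and 53.7 to 414 and 416 CPM. Fscn1, the actin bundler of mature DCs, had 2392 and 2414 CPM without and 2948 and 2846 CPM with LPS (log2 0.27), a call that was lost with library size alone. Cd83 had 433 and 421 CPM without and 463 and 454 CPM with LPS (log2 0.10, adjusted p = 0.072, and −0.12 on the log2 scale with library size alone). Icosl, Tnfrsf4, Tnfsf4, Cd63 and Slco5a1 fell, by 1.31, 2.01, 0.23, 0.73 and 1.10.

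The main MHC class II chains and the invariant chain were not called: H2-Aa had 1680.0 and 1651 CPM without and 1668 and 1652 CPM with LPS, H2-Eb1 had 1299 and 1271 against 1257 and 1224 CPM, and Cd74, the invariant chain, had 6471 and 6314 against 6536 and 6432 CPM, a log2 change of 0.02 that turned to −0.20 with library size alone. Ciita, the factor that switches class II genes on, fell from 205 and 198 to 103 and 107 CPM (log2 −0.94, adjusted p = 8.95e-14). H2-DMa and H2-DMb2, whose products load peptides, fell by 1.56 and 0.97. In all, 7 of 11 fell, against 27.4% of all genes, and none rose, against 28.0%, with a median of −0.94. With library size alone all 11 were lower. MHC class I and immunoproteasome genes rose in 13 of 15 cases, against 28.0% of all genes, and fell in 1, against 27.4%, with a median of 1.11. B2m went from 1888 and 1916 to 6556 and 6633 CPM (log2 1.79), H2-K1 from 1297 and 1294 to 4781 and 4657 CPM (log2 1.87) and the peptide transporter Tap1 from 222 and 225 to 615 and 626 CPM (log2 1.48).

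**Figure D3:**
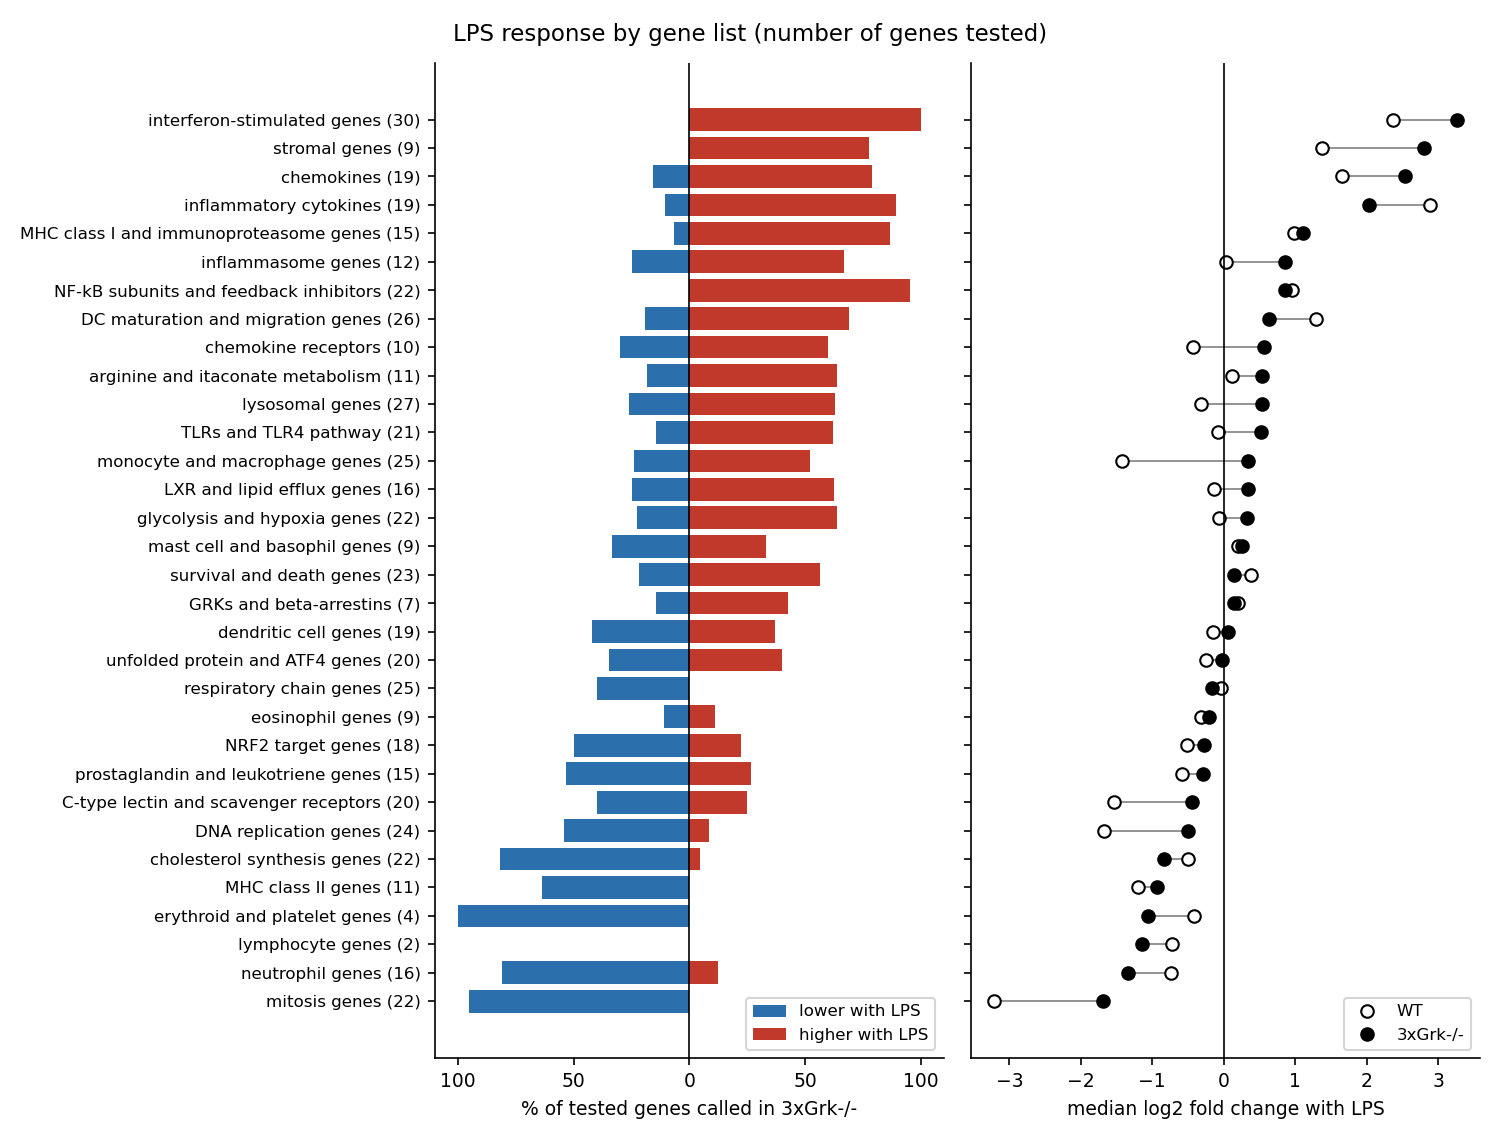
Left, the percentage of the tested genes of each list that were called lower (blue) or higher (red) with LPS in 3xGrk-/- BMDCs. Right, the median log2 fold change of the list in 3xGrk-/- (filled) and WT (open) cells, with the number of genes tested in parentheses. By median, interferon-stimulated genes were at one end, with 30 of 30 higher, and mitosis genes at the other, with 21 of 22 lower.

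Of 25 markers of monocytes and macrophages, 13 rose, against 28.0% of all genes, and 6 fell, near the 27.4% of all genes. With library size alone 12 rose and 10 fell. Their summed level went from 14546 and 14439 to 19988 and 19996 CPM. Adgre1, the gene of F4/80, rose from 263 and 267 to 1150.0 and 1190.1 CPM (log2 2.14, adjusted p = 1.55e-23). The Fc receptors Fcgr1 and Fcgr4 rose by 3.73 and 5.14, Fcgr1 from 23.5 and 23.3 to 310 and 311 CPM. Lyz2 fell from 7068 and 7093 to 4558 and 4614 CPM (log2 −0.63), and Csf1r, the receptor of M-CSF, by 0.46. The complement genes C1qa and C1qc were not called, with log2 changes of −0.21 and 0.05. DC genes rose in 7 of 19 cases, against 28.0% of all genes, and fell in 8, against 27.4%. Irf8 rose by 0.95, Irf4 fell by 0.82 and Itgax fell by 1.67.

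Of 16 neutrophil genes, 13 fell, against 27.4% of all genes, and 2 rose, against 28.0%, with a median of −1.34. S100a8 fell from 192 and 194 to 52.9 and 61.8 CPM (log2 −1.75), and Mmp9 from 252 and 251 to 69.8 and 69.4 CPM (log2 −1.86). Lcn2, which encodes an iron-binding protein that LPS is also known to induce in macrophages, rose from 81.4 and 82.5 to 1580.5 and 1543 CPM (log2 4.25). The summed level of the list, Lcn2 included, was higher with LPS, 2229 and 2219 against 1628 and 1661 CPM. Eosinophil genes summed to between 67.4 and 89.4 CPM in the 4 knockout libraries and to between 1166 and 1355 CPM in WT libraries. Of 9 in 3xGrk-/- cells, 1 was higher (Ear2, log2 2.71), against 28.0% of all genes, and 1 lower (Siglecf, log2 −2.69), against 27.4%. With library size alone 4 were lower. Lymphocyte genes summed to at most 6.08 CPM in 3xGrk-/- cells, and 15 of 17 did not pass the filter on low counts. All 4 erythroid and platelet genes tested fell, against 27.4% of all genes. Among them were the platelet chemokine genes Pf4 and Ppbp, by 1.12 and 3.72, and the globin gene Hbb-bt, by 0.74. Among 9 mast cell and basophil genes 3 rose and 3 fell, near the 28.0% and 27.4% of all genes, and the rise of Hdc, the enzyme that makes histamine, was from 15.7 and 18.4 to 254 and 259 CPM (log2 3.92).

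Stromal genes rose in 7 of 9 cases, against 28.0% of all genes, and fell in none (2 with library size alone), against 27.4%. Their summed level went from 16.5 and 13.7 to 160 and 151 CPM. Most of that sum was Dcn. Lum, a related proteoglycan, was at 0 without LPS and reached 7.64 and 6.97 CPM, at least 30.2-fold, and the collagen genes Col1a1, Col1a2 and Col3a1 reached 3.27 to 5.67 CPM. Pecam1, a gene of endothelium that some leukocytes share, was not called. In WT cells the sum went from 15.7 and 17.9 to 37.4 and 26.6 CPM, with Lum at 0 without and at 14.2 and 8.66 CPM with LPS. The part of stromal cells in the rise of Dcn was not tested.

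Of 11 genes of arginine and itaconate metabolism, 7 rose, against 28.0% of all genes, 2 fell, against 27.4%, and 2 were not called. Beside Nos2, the arginine transporter Slc7a2 rose from 458 and 466 to 2693 and 2772 CPM (log2 2.56), and Acod1, the enzyme that makes itaconate, from 147 and 142 to 745 and 744 CPM (log2 2.37). Ass1, which regenerates arginine from citrulline, fell from 766 and 745 to 320 and 315 CPM (log2 −1.25), and Srm, the spermidine synthase, fell by 1.83. Odc1 and Gch1 rose by 0.54 and 0.40.

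In the prostaglandin pathway, Ptges, which makes prostaglandin E2 downstream of Ptgs2, rose from 27.4 and 24.7 to 211 and 208 CPM (log2 3.00). The constitutive cyclooxygenase Ptgs1 fell from 168 and 158 to 29.3 and 26.6 CPM (log2 −2.55), and the leukotriene genes Alox5, Alox5ap, Lta4h and Ltc4s fell by 0.88, 1.47, 0.84 and 1.44. In all, 4 genes rose among the 15 tested, about the 28.0% of all genes, and 8 fell, against 27.4%.

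Cholesterol synthesis genes fell in 18 of 22 cases, against 27.4% of all genes, and rose in 1, against 28.0%, with a median of −0.83. Cyp51, a demethylase of the sterol ring, had 60.7 and 70.8 CPM without and 24.7 and 19.9 CPM with LPS (log2 −1.56, adjusted p = 7.41e-13), and Sqle, the squalene epoxidase, fell by 1.60. Their regulator Srebf2 fell by 0.73, while Pmvk rose by 1.89. The sterol response element searched (TCACNCCAC, either strand) was in 1 of 19 windows of the list, and an inverted CCAAT box (ATTGG) in 16 of 19 (84.2%), against 1.24% and 37.4% of all windows. Among the 16 genes of the LXR pathway and lipid handling, 10 rose, against 28.0% of all genes, and 4 fell, near the 27.4% of all genes. Abca1, which exports cholesterol, rose from 141 and 144 to 325 and 349 CPM (log2 1.24). Plin2, the coat of lipid droplets, rose by 1.30 and the fatty acid carrier Fabp4 by 4.34. The desaturases Scd1 and Scd2 fell by 2.89 and 2.71, and Lpl, the lipoprotein lipase, fell from 3232 and 3270.5 to 707 and 736 CPM (log2 −2.17).

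Mitosis genes fell in 21 of 22 cases in 3xGrk-/- cells, against 27.4% of all genes, and rose in none, against 28.0%, with a median of −1.69. They were low before LPS, with a summed level of 229 and 221 CPM, and had 90.2 and 85 CPM after it. Top2a, a topoisomerase of dividing cells, had 39.3 and 34.2 CPM without and 16.7 and 18.6 CPM with LPS (log2 −1.06, adjusted p = 1.07e-08). Ccnb2, a mitotic cyclin, had 2.84 and 3.82 against 0.545 and 0.486 CPM (log2 −2.63, adjusted p = 3.14e-05), and Mki67 fell by 0.85. The stimulated libraries differed for Ccna2, with 1.64 and 0.324 CPM, and for Bub1, with 2.18 and 0.324 CPM, and both calls held without either library. DNA replication genes fell in 13 of 24 cases, against 27.4% of all genes, and rose in 2, against 28.0%. With library size as the only scaling 20 were lower. Rrm2, which supplies deoxynucleotides, fell by 3.06, while Pcna had 86.2 and 85.8 CPM without and 83.3 and 87.4 CPM with LPS.

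The promoters of Ccnb2 (chr9:70421505-70421804, minus strand) and Top2a (chr11:99024140-99024439, minus strand) are shown because both hold several matches to 2 motifs. These are the cell cycle genes homology region (TTTGAA) and the inverted CCAAT box (ATTGG). Capitals mark matches on either strand, and matches of the 2 motifs do not overlap in these windows.
Ccnb2: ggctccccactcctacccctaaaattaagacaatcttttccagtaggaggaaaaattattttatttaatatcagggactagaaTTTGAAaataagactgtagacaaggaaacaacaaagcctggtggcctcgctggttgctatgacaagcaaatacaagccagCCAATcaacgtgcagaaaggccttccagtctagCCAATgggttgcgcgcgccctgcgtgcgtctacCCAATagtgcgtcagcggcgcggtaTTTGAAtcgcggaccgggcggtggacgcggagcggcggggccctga
Top2a: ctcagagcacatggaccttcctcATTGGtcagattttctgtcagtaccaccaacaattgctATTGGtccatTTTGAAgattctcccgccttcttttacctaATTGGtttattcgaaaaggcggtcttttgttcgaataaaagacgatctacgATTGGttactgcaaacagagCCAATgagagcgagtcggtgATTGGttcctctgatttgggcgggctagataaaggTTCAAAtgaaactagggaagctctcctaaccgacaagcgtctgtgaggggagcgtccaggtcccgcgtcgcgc
In Ccnb2 TTTGAA started at −167 and at 5 bases into the transcript, and CCAAT, the reverse strand of ATTGG, at −87, −54 and −21. In Top2a TTTGAA started at −179 and its reverse TTCAAA at −23, with 6 boxes from −227 to −58. Of 18 windows of mitosis genes, 13 held TTTGAA (72.2%, against 17.9% of all windows) and 16 held ATTGG (88.9%, against 37.4%). ATTGG was also in 8 of 9 windows of MHC class II genes (88.9%), so it is not particular to mitosis genes. TTTGAA was in 17.8% of windows of genes higher by at least 2 log2 units and in 20.3% of those lower by at least 2. The E2F motif TTTNGCGC was in 7 of 20 windows of DNA replication genes (35%, against 1.38% of all windows).

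Genes of glycolysis and hypoxia rose in 14 of 22 cases, against 28.0% of all genes, and fell in 5, near the 27.4% of all genes. With library size alone 11 rose and 8 fell. Vegfa rose from 15 and 13.4 to 189 and 196 CPM (log2 3.76, adjusted p = 5.46e-23), Hif1a from 144 and 147 to 333 and 355 CPM (log2 1.24) and Pfkfb3, an enzyme that speeds up glycolysis, from 333 and 330 to 877 and 899 CPM (log2 1.42). Pfkp, a phosphofructokinase, fell from 447 and 440 to 192 and 183 CPM (log2 −1.25). None of 25 respiratory chain genes rose, against 28.0% of all genes, and 10 fell, against 27.4%, by 0.16 to 0.78. With library size alone 20 fell. Among 18 targets of NRF2, the regulator of antioxidant genes, 4 rose, near the 28.0% of all genes, and 9 fell, against 27.4%. The ferritin genes Fth1 and Ftl1 rose by 1.01 and 0.57, Fth1 from 8753 and 8408 to 17354 and 17142 CPM, and Hmox1, which frees iron from haem, from 172 and 173 to 365 and 372 CPM (log2 1.09). Nqo1 and Gclm fell by 1.88 and 1.76, and Nfe2l2, which encodes NRF2, by 0.66. Of 20 genes of the unfolded protein response and ATF4, 8 rose, against 28.0% of all genes, and 7 fell, against 27.4%. Ddit3 and Trib3 rose by 2.06 and 2.24, while the serine synthesis genes Psat1 and Phgdh fell by 1.20 and 1.36 and the amino acid transporter Slc7a5 by 1.52.

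Lysosomal genes rose in 17 of 27 cases in 3xGrk-/- cells, against 28.0% of all genes, and fell in 7, about the 27.4% of all genes. Their median was 0.54, and their summed level went from 12714 and 12595 to 25837 and 25691 CPM. Ctsl, the protease cathepsin L, rose from 729 and 751 to 2898 and 2921 CPM (log2 1.98, SE 0.0455, adjusted p = 4.43e-24). Ctsb rose from 1625 and 1571 to 3654 and 3694 CPM (log2 1.20) and Npc2, which carries cholesterol out of the lysosome, from 459 and 498 to 2752 and 2730.1 CPM (log2 2.52). The transcription factors Tfeb, Mitf and Tfe3, which stand on the same list, fell by 1.05, 0.61 and 0.23. Lipa, the acid lipase, fell from 442 and 440 to 176 and 171 CPM (log2 −1.35).

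Genes of cell survival and death rose in 13 of 23 cases, against 28.0% of all genes, and fell in 5, under the 27.4% of all genes. With library size alone 8 rose and 8 fell. Mlkl, the effector of necroptosis, rose from 13 and 14.4 to 74 and 75.1 CPM (log2 2.45), Bcl2l11, which encodes BIM, by 1.88 and Cflar, an inhibitor of caspase-8, by 1.40. Bcl2 fell from 21.4 and 15.1 to 4.18 and 2.27 CPM (log2 −2.53, adjusted p = 8.48e-10). Inflammasome genes rose in 8 of 12 cases, against 28.0% of all genes, and fell in 3, near the 27.4% of all genes. Il1b and Il18 stand on this list and on that of the cytokines. Casp4, the sensor of LPS in the cytosol, rose from 22.1 and 21 to 163 and 177 CPM (log2 2.98), Casp1 by 1.57 and Nlrp3 by 1.07, while Pycard, the adaptor ASC, fell by 0.79. Of 20 C-type lectin and scavenger receptors, 5 rose, near the 28.0% of all genes, and 8 fell, against 27.4% (4 and 13 with library size alone). Clec4e, the receptor Mincle, rose from 190 and 186 to 621 and 652 CPM (log2 1.76), and Mrc1 and Clec5a fell by 1.93 and 2.62.

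In WT cells, 3702 genes (29.5%) were called higher and 3859 (30.8%) lower with LPS. Of the genes higher in 3xGrk-/- cells, 2320 were also higher in WT cells, which is 66.1% of the 3xGrk-/- and 62.7% of the WT genes. Of the lower genes, 2357 were shared, 68.6% of the 3xGrk-/- and 61.1% of the WT genes. The response went in opposite directions for 262 genes that were higher and 245 that were lower in 3xGrk-/- cells. The difference of the responses, 3xGrk-/- minus WT, was called for 2067 genes upwards (16.5%) and 2003 downwards (16.0%). For 1024 of the genes that rose in 3xGrk-/- cells the difference was upwards and for 521 downwards. Among those that fell it was upwards for 478 and downwards for 905. The difference contains the 3xGrk-/- response, so choosing genes by that response favours a difference in the same direction, and these splits are no result.

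**Figure D4:**
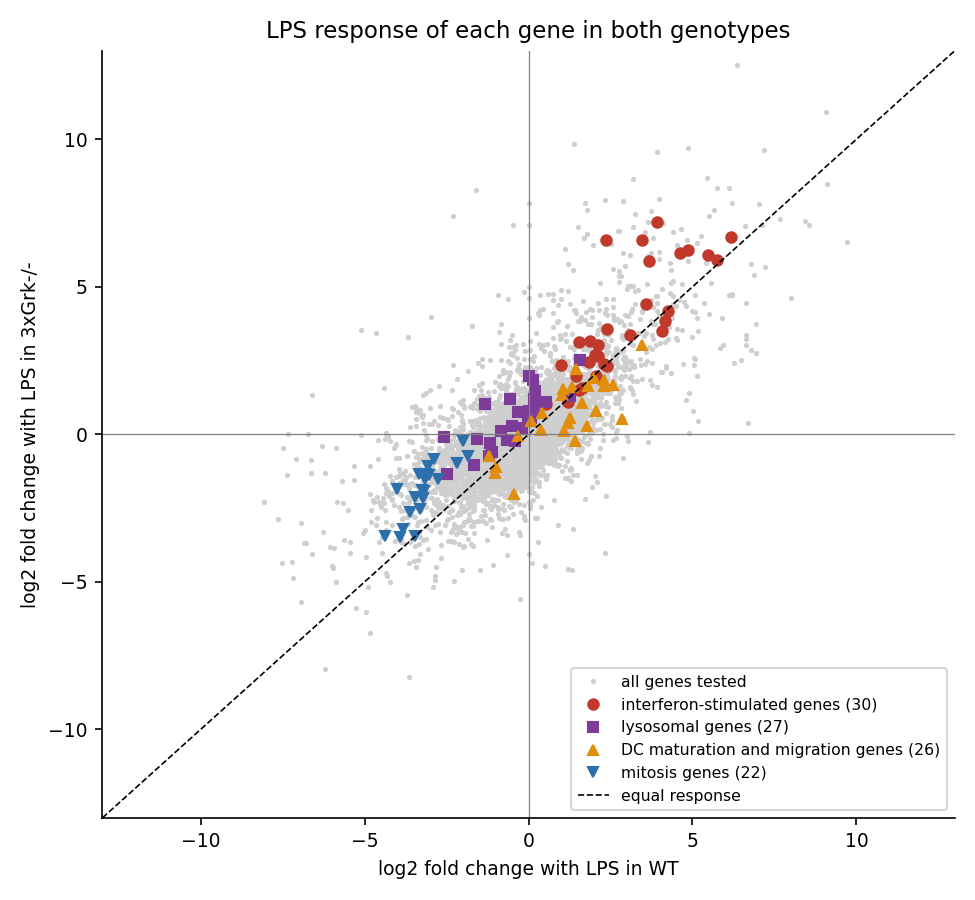
Log2 fold change with LPS in WT (x axis) and in 3xGrk-/- BMDCs (y axis), 1 point per gene tested, with the line of equal response. Interferon-stimulated and lysosomal genes lie mostly above the line (19 of 30 and 24 of 27 with a difference called upwards), mitosis genes above it in the lower left (15 of 22), and DC maturation genes mostly below it (15 of 26 with a difference called downwards).

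The interferon-stimulated genes rose in WT cells as well, 30 of 30 against 29.5% of all genes, with a median of 2.37. The rise was larger in 3xGrk-/- cells for 19, against 16.5% of all genes with an upward difference, smaller for 2, against 16.0% downwards, and not called different for 9. Rsad2 had 10.1 and 9.39 CPM without and 149 and 146 CPM with LPS in WT cells, and the 2 responses differed by 3.27 on the log2 scale (adjusted p = 1.33e-15). Ifit2 had 15.7 and 13.3 against 76 and 71.2 CPM in WT and 4.49 and 3.65 against 398 and 401 CPM in 3xGrk-/- cells, a difference of 4.24. Oasl1, with 6.5 and 5.33 against 307 and 324 CPM in WT cells, rose by 5.75 there and by 5.90 in 3xGrk-/- cells (adjusted p = 0.68 for the difference), and Zbp1 rose more in WT cells, by 0.55.

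Lysosomal genes showed the widest share of differences among the lists of over 20 genes described here: 24 of 27 differed upwards, against 16.5% of all genes, and none downwards. Ctsl had 43.9 and 46.4 CPM without and 45.2 and 46.6 CPM with LPS in WT cells, Ctsb had 600 and 629 against 406 and 427 CPM, and Grn, the gene of progranulin, had 479 and 478 against 180 and 199 CPM. In 3xGrk-/- cells Grn rose from 565 and 551 to 1176 and 1107 CPM, and the responses differed by 2.37 (adjusted p = 1.54e-19). Markers of monocytes and macrophages differed in the same direction, 19 of 25 upwards and 2 downwards, against 16.5% and 16.0% of all genes. Their summed level fell in WT cells, from 3567 and 3584 to 1762 and 1819.6 CPM, and was over 4-fold higher in 3xGrk-/- cells before LPS. Ctsl and Ctsd stand on both lists. The part of these cells in the lysosomal difference was not tested.

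DC maturation genes differed downwards in 15 and upwards in 6 of 26 cases, where 16.0% and 16.5% of all genes did. Fscn1 rose by 1.78 in WT cells, from 1783 and 1685 to 5679.5 and 6229.6 CPM, against 0.27 in 3xGrk-/- cells. Cd83 rose by 1.08 in WT cells, from 554 and 538 to 1137 and 1173 CPM. Cd86 reached 1655 and 1680.1 CPM in WT and 947 and 986 CPM in 3xGrk-/- cells from similar levels. Cd80 did not differ by the test (−0.11, adjusted p = 0.318), and Cd274 rose more in 3xGrk-/- cells, by 0.26. Outside this list, Ccl22 rose by 1.94 in WT cells, from 5966 and 6080.4 to 22768 and 23582 CPM, and the responses differed by −1.91 (adjusted p = 4.35e-23). With LPS, Il12b reached 255 and 261 CPM in WT against 58.9 and 59.2 CPM in 3xGrk-/- cells. Their own lists went both ways: of 19 chemokine genes 6 differed upwards and 6 downwards, and of 19 cytokine genes 4 and 6.

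**Figure D5:**
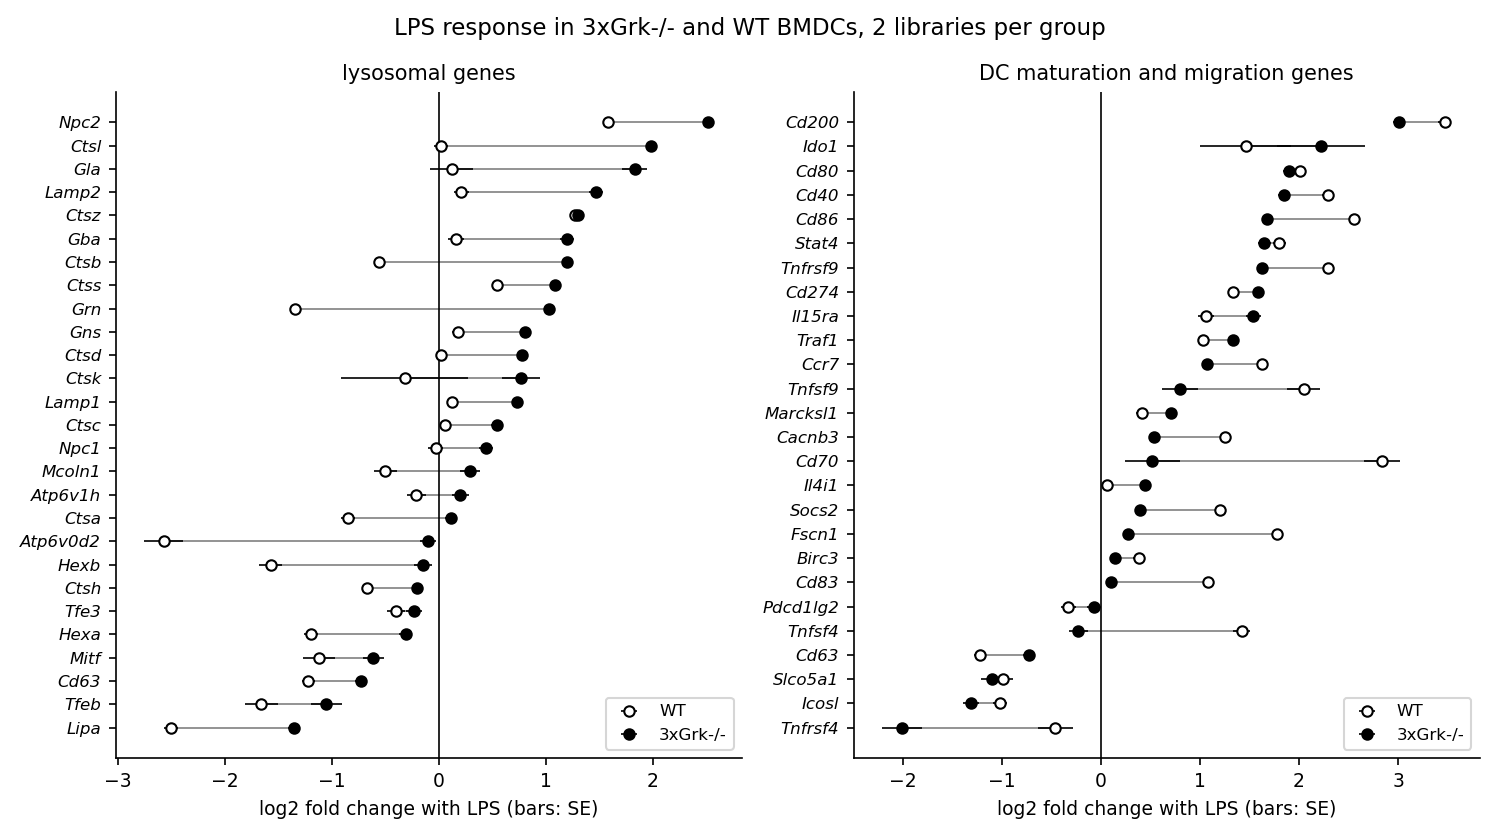
Log2 fold change with LPS (x axis, bars are SE) of each lysosomal gene (left) and each DC maturation and migration gene (right) in WT (open) and 3xGrk-/- (filled) BMDCs, from 2 libraries per group. Ctsl is at 1.98 in 3xGrk-/- and 0.02 in WT cells, and Fscn1 at 0.27 and 1.78.

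MHC class II genes fell in WT cells in 11 of 11 cases, against 30.8% of all genes, and started higher there: H2-Aa had 3988 and 3966 CPM without and 1851 and 1971 CPM with LPS, and Ciita 552 and 541 against 175 and 184 CPM. With LPS, H2-Aa had 1668 and 1652 CPM in 3xGrk-/- cells, while Ciita had 103 and 107 CPM and H2-Eb2, a further class II chain, 0.727 and 1.62 CPM, against 20.1 and 16.6 CPM in WT cells. The responses differed upwards for 8 and downwards for 1 of the 11 genes, against 16.5% and 16.0% of all genes. Mitosis genes likewise started higher in WT cells, with a summed level of 1265 and 1239.9 CPM, and fell to 144 and 153 CPM. Their response differed upwards in 15 of 22 cases, against 16.5% of all genes, and by 2.02 for Top2a (WT 199 and 205 against 22.7 and 25.2 CPM).

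For cholesterol synthesis genes the difference was downwards in 7 of 22 cases, against 16.0% of all genes, and upwards in 3, about the 16.5% of all genes. Cyp51 had 91.5 and 94.3 CPM without and 89.3 and 84 CPM with LPS in WT cells, a difference of −1.46 (adjusted p = 1.68e-09). Slc7a5 rose by 0.54 in WT and fell by 1.52 in 3xGrk-/- cells. Among monocyte attractants, Ccl12 rose from 1.94 and 1.39 to 16.2 and 20.8 CPM in 3xGrk-/- cells and had 3.06 and 2.24 CPM without and 0 and 0.155 CPM with LPS in WT cells. With LPS, Nos2 had 25 and 28 CPM in WT cells, Ptgs2 69.1 and 42.9 CPM and Dll4 25.4 and 25.2 CPM, each below both stimulated 3xGrk-/- libraries. All 3 had under 1 CPM in the unstimulated WT libraries, and the differences of their responses were not called (adjusted p = 0.187, 0.619 and 0.934).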

How the data were processed

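RNA of 8 BMDC libraries was sequenced, 2 in each combination of genotype and LPS. The authors prepared stranded mRNA libraries and counted reads with snakePipes 2.1.0, STAR 2.7.3a on mm10 and featureCounts 2.0.0, per the study's methods and the submitters' processing notes. The annotation release and strand setting are not given in the sources used here. The deposited values are whole, unnormalized counts per gene in 2 tables, 1 of stimulated and 1 of unstimulated libraries. No column was without a sample.

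The tables were joined on 47937 Ensembl IDs and named from GENCODE on GRCm38. Overlapping and antisense genes cannot be told apart where strand was not used. After filterByExpr, which kept 12541 genes, and TMM scaling, all 8 libraries entered 1 edgeR 4.0.16 quasi-likelihood fit with a term per group. The contrasts were LPS against unstimulated in 3xGrk-/- and in WT cells, and their difference, with Benjamini-Hochberg adjustment and a threshold of 0.05. SE is the log2 fold change over the root of F. It is too small for large changes that start from few counts and is left out of the text for those. Genes at 0 in a group have a bound from a floor of 3 counts over the group, and 1 to 3 counts an exact 95% interval, for counting error only. The 3xGrk-/- response and the difference between genotypes were simulated with 100 genes changed by 1 log2 unit and 100 by 2. At 1 log2 unit the fit found 98 of the 100 for the response and 86 for the difference. Genes called wrongly numbered 5 of 12176 and 9 of 12138. In the data, 6945 of 12541 genes were called for the 3xGrk-/- response, far more than were changed in the simulation. It therefore cannot give the rate of wrong calls or the error of the scaling in these libraries. Alternatives were DESeq2 1.42.0, other scalings, filters and dispersions, a replicate block and leaving out each library.

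Named genes were the 15 with the largest fold change in each direction among genes past the threshold whose libraries did not overlap, the 8 with the largest difference between responses in each direction (both among genes whose log2 CPM averaged 3 or more), and the members of the lists. The members and lists were chosen with earlier results of these data known. Promoter windows and motif matches come from RefSeq on GRCm38.p6.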

Additional observations from a re-analysis of the deposited data

Results flagged for a closer look

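The LPS responses of 3xGrk-/- and WT cells differed, in edgeR's quasi-likelihood test of the interaction, for 2067 genes upwards and 2003 downwards, and the genes with large differences are given here with the values of replicate 1 and replicate 2 in CPM. Klk1b11, a member of the kallikrein family, rose in 3xGrk-/- cells from 4.94 and 5.9 to 66 and 58.5 and fell in WT cells from 43.9 and 44.1 to 0.907 and 1.55, a difference of 8.64 on the log2 scale (adjusted p = 3.25e-20). Fcgr1, the high-affinity IgG receptor, went in opposite directions too, from 23.5 and 23.3 to 310 and 311 in 3xGrk-/- and from 37.4 and 35.6 to 20.7 and 20.3 in WT cells (difference 4.56, adjusted p = 2.67e-20). For the interferon-induced genes Isg20 (difference 5.83, adjusted p = 9.62e-12), Ifit1bl1 (5.66, adjusted p = 6.05e-08) and Ifi205 (5.01, adjusted p = 3.38e-17), both genotypes rose and 3xGrk-/- cells rose more. Ifi205 had 2.54 and 2.6 without and 278 and 298 with LPS in 3xGrk-/- cells, and 15.1 and 15.8 without and 53.9 and 52.9 with LPS in WT cells. Isg20 in WT cells had 4.01 and 3.5 without and 11.8 and 13.8 with LPS, and Ifit1bl1 had 0.764 and 1.68 without and 18.5 and 20.7 with LPS.

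Slc28a2, a nucleoside transporter, rose from 0.748 and 1.22 to 80 and 74.4 in 3xGrk-/- cells and had 2.1 and 0.701 without and 2.72 and 2.94 with LPS in WT cells (difference 5.17, adjusted p = 3.3e-07). Ms4a8a rose from 2.24 and 1.39 to 55.3 and 50.1 and stayed under 1 CPM in all WT libraries (difference 4.96, adjusted p = 5.15e-05). Sept3 fell in both genotypes, in 3xGrk-/- cells from 4.64 and 2.95 to 0.545 and 0.486 and in WT cells from 69.4 and 71.5 to 0.363 and 0.309 (difference 4.78, adjusted p = 0.000241).

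Downwards, Slc14a1, a urea transporter, had 2.99 and 1.39 without and 0.364 and 0.649 with LPS in 3xGrk-/- cells and rose from 7.07 and 7.43 to 39.4 and 35.3 in WT cells (difference −4.44, adjusted p = 3.59e-07). Tlx2 fell from 15 and 12.3 to 3.64 and 2.43 in 3xGrk-/- cells and rose from 7.26 and 5.47 to 16.5 and 24.1 in WT cells (−3.90, adjusted p = 2.75e-10). Plek2 fell from 49.2 and 42.7 to 26.9 and 26.4 and rose in WT cells from 8.98 and 11.5 to 73.3 and 79.2 (−3.66, adjusted p = 7.08e-16). Kirrel rose in both, from 6.13 and 6.25 to 14 and 13.9 in 3xGrk-/- and from 2.1 and 1.54 to 51.7 and 48.1 in WT cells (−3.62, adjusted p = 3.06e-10), and so did Dusp4, a phosphatase of MAP kinases, from 4.79 and 5.04 to 13.3 and 12.5 and from 2.1 and 0.841 to 41.2 and 41.3 (−3.50, adjusted p = 1.26e-08). Igf1 had 56.1 and 71.5 without and 57.6 and 63.6 with LPS in 3xGrk-/- cells and rose from 3.63 and 3.08 to 28.3 and 24.9 in WT cells (−3.06, adjusted p = 4.12e-11). Ccr4 reached similar levels, 30.5 and 29.3 in 3xGrk-/- and 32.8 and 37.9 in WT cells, from 3.29 and 4.17 and from 0.764 and 0.42 (−2.91, adjusted p = 1.34e-05). Hbb-bt, a haemoglobin gene, fell from 8.68 and 8.16 to 5.27 and 4.86 in 3xGrk-/- cells and rose from 4.39 and 2.66 to 13.4 and 16.7 in WT cells (−2.89, adjusted p = 6.14e-08).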

How the results depend on the processing

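For 3xGrk-/- cells, 2245 genes were higher and 5200 lower with library size alone, 552 and 298 with a coefficient of variation fixed at 0.4, and 1216 and 1157 with a log2 change of at least 1. For WT cells, 2443 were higher and 5420 lower with library size alone, 451 higher and 659 lower at 0.4, and 1091 and 1609 with a log2 change of at least 1. Differences between the responses numbered 1342 upwards and 1301 downwards with DESeq2, 1287 and 874 at a coefficient of 0.1, 61 and 11 at 0.4, and 947 and 428 with a log2 difference of at least 1. Leaving out 1 library at a time gave 3024 to 3776 higher and 2806 to 3634 lower genes in 3xGrk-/- cells, 3170 to 3730 and 3247 to 3871 in WT cells, and 1716 to 2088 upward and 1575 to 2111 downward differences. Libraries of the same number did not deviate together, with correlations from −0.06 to 0.07, and the fit with a replicate block gave 3431 higher and 3362 lower genes in 3xGrk-/- cells, 3632 and 3806 in WT cells, and 1978 and 1906 differences.

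With library size alone the log2 change in 3xGrk-/- cells turned to −0.06 for Arrb2, −0.02 for Atp6v1h, −0.08 for Bcl2a1a, −0.20 for Bcl2l1, −0.07 for Birc3, −0.18 for Ccl22, −0.22 for Cd36, −0.20 for Cd74, −0.12 for Cd83, −0.15 for Cish, −0.16 for Eno1, −0.13 for H2-Ab1, −0.07 for Mcl1, −0.20 for Msr1, −0.14 for Pdia4, −0.09 for Pgk1, −0.03 for Srebf1 and −0.01 for Xiap. The median of all genes was −0.23 under that scaling. At a coefficient of 0.4, calls were lost in most lists: higher genes numbered 26 of 30 for interferon-stimulated, 14 of 19 for cytokine, 12 of 19 for chemokine, 4 of 22 for NF-kB, 4 of 26 for DC maturation, 2 of 15 for MHC class I and 3 of 27 for lysosomal genes, and lower genes 8 of 22 for mitosis, 1 of 22 for cholesterol synthesis and 1 of 11 for MHC class II. Precision is limited by 2 libraries per group of uncertain independence and by low counts, as in mitosis genes.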
